A study of Mus musculus with 6 samples.

Results

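The genes of the interleukin-1 (IL-1) family examined here encode its secreted ligands, their receptors and the proteins that block them. They are the rows of the deposited count table whose gene symbol is Il1a, Il1b, Il33, Il18, Il1rn, Il1r2, Il18bp, Il1r1, Il1rap or Il1rl1, and all 10 were among the 23867 genes of that table. The list was set by name and function, and no measured value entered the rule, though earlier results of these data were known when it was chosen. The cells are mouse chondrocytes, the resident cells of cartilage, profiled by bulk RNA sequencing in 6 libraries. Mice of the mutant genotype gave 3 libraries: they are labelled MFN2Col2a1-/- and called KO here, and the other 3, from MFN2wt mice, are called WT. The sources used here give no age, sex, strain, treatment or site of the cartilage.

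The genotype label pairs Mfn2, the gene of the mitochondrial fusion protein mitofusin 2, with Col2a1, the gene of the main cartilage collagen. The KO columns are named CRE, but the labels do not state which promoter drove recombination. The labels also leave unsaid whether the libraries of a group were separate animals, pools or cultures, so a p-value speaks only of how these libraries vary. The Mfn2 level of CRE1 to CRE3 was 64.0, 56.5 and 59.4 CPM and that of WT1 to WT3 was 108, 108 and 106 CPM, so transcript of the targeted gene remained in the KO libraries. CPM here means counts scaled to a common library size with TMM factors, a correction for differences in library make-up. Values of a group are given in the order CRE1, CRE2, CRE3 or WT1, WT2, WT3. Column totals were 31481779 to 37814723 counts in the KO and 39267487 to 40152687 in the WT. Col2a1 averaged 509 CPM in the KO and 3397 CPM in the WT, and the proteoglycan gene Acan, another defining cartilage gene, was likewise read in every library, at a mean of 49.0 CPM in the KO and 352 CPM in the WT.

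IL-1alpha and IL-1beta, the products of Il1a and Il1b, bind the receptor IL-1R1, which recruits the accessory protein IL-1RAcP (Il1rap) and signals through MyD88 to NF-kB and MAP kinases. The receptor antagonist IL-1Ra (Il1rn) occupies IL-1R1 without recruiting the accessory protein, and IL-1R2 binds IL-1 without signalling, as a decoy. IL-33 uses the receptor ST2 (Il1rl1) with the same accessory protein, while IL-18 has its own receptor and is held in check by the soluble IL-18 binding protein. In cartilage, IL-1 is known for inducing proteases and inflammatory mediators and for lowering matrix synthesis. Only transcripts were measured here. IL-1beta and IL-18 are made as precursors that caspase-1 cuts, a step that these data do not read.

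The sequences around the transcription starts of the genes with the largest changes are shown to place their core elements. They are RefSeq windows of 300 bases (250 before and 50 after an annotated start) on GRCm38.p6, matched by symbol; all 10 genes had at least 1 window and there were 15 windows in all. Il1a, Il1b and Il1rn lie on chromosome 2. Capitals mark the letters TATAAA or the AP-1 letters TGANTCA, read on both strands.
Il1a, chr2:129309923-129310222, minus strand: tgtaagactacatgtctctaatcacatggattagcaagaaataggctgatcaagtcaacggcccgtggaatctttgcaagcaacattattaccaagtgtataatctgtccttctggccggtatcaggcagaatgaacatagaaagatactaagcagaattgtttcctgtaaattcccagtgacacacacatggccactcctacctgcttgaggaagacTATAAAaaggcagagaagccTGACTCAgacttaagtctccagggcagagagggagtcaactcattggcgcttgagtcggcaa
Il1b, chr2:129371090-129371389, minus strand: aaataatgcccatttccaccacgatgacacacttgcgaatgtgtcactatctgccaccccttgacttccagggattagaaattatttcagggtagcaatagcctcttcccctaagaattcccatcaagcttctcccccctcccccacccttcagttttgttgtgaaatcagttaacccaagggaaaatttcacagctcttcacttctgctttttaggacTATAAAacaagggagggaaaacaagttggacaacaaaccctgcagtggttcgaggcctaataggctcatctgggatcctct
Il1rn, upstream start, chr2:24336610-24336909, plus strand: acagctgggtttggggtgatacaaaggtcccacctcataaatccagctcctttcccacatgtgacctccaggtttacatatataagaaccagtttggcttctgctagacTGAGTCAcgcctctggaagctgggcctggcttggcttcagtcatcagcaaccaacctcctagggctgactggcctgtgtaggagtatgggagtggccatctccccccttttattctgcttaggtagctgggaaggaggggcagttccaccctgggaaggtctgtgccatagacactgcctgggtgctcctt
Il1rn, downstream start, chr2:24345121-24345420, plus strand: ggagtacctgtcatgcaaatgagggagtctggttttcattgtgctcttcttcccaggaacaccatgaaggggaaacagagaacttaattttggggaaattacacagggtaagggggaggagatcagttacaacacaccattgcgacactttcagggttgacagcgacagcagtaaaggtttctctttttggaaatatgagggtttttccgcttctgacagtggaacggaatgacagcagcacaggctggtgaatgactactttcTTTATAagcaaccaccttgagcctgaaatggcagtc

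Il1a and Il1b each hold TATAAA on the strand shown, centred 30 and 28 bases before the start. In the downstream Il1rn window these letters stand on the other strand, where they read TTTATA in the printed sequence, centred 16 bases after the start. TGANTCA is centred 9 bases before the Il1a start and 138 bases before the upstream Il1rn start. RefSeq gives Il1rn 3 starts; background knowledge ties the gene's different starts to secreted and intracellular forms of the antagonist, and a count per gene does not separate them. Of the 15 windows, 6 held TATAAA, against 13.6% of all 32851 RefSeq windows of that length, and 2 held TGANTCA, against 7.81%. The TATAAA matches not printed above were in the Il33 windows, centred at −26 and −200 bases from their starts, and in the Il18 window. The Il18 match was on the other strand, centred at −172 bases. These counts take the letters anywhere in a window and on either strand, and windows of 1 gene can overlap, so they are not counts of core elements. The NF-kB consensus, searched on both strands, was in 1 of the 15 windows, that of a second Il1r1 start, and in 8.46% of all windows. These are matches of letters and do not show that a factor binds.

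The transcripts of both IL-1 agonists were scarce in both groups and higher in the KO. Il1a was read by 36, 34 and 23 counts in CRE1, CRE2 and CRE3 and by 1, 6 and 0 counts in WT1, WT2 and WT3. On the CPM scale that is 1.24, 0.961 and 0.765 in the KO against 0.023, 0.142 and 0 in the WT. Every KO library lay above every WT library. Il1a differed by 4.09 on the log2 scale (SE 0.64), with an adjusted p = 4.48e-05 in edgeR's test, and by 6.03 without WT2, which held 6 of the group's 7 counts. The summed counts, 93 in the KO and 7 in the WT, gave a ratio of levels of 18.0 with a 95% exact interval of 8.40 to 46.0 for counting error only.

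Il1b, the form released mainly by activated myeloid cells in other tissues, was as scarce as Il1a and also higher in the KO. It had 37, 39 and 24 counts in CRE1, CRE2 and CRE3, against 1, 2 and 2 counts in the WT libraries, or 1.27, 1.10 and 0.798 CPM against 0.023, 0.047 and 0.046 CPM. The groups did not overlap. It differed by 4.64 on the log2 scale (SE 0.54, adjusted p = 1.72e-06, edgeR), and the summed counts of 100 in the KO and 5 in the WT gave a ratio of 27.1 (95% exact interval 11.2 to 85.2, counting error only). On the log2(FPKM + 0.1) scale, which understates changes of low genes, the differences were 2.15 for Il1a and 2.33 for Il1b. Both genes passed the filter on low counts only through the KO libraries, so that their being tested already required a difference. A single count equals 0.0231 to 0.0344 CPM in these libraries, and the genes' levels in the WT rest on very few reads. An antisense transcript overlaps each of them in the GENCODE M21 annotation, and strand-specific counting is not stated. The antisense gene of Il1b, Il1bos, had 0, 4 and 0 counts in the KO and 0 in each WT library.

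**Figure D1:**
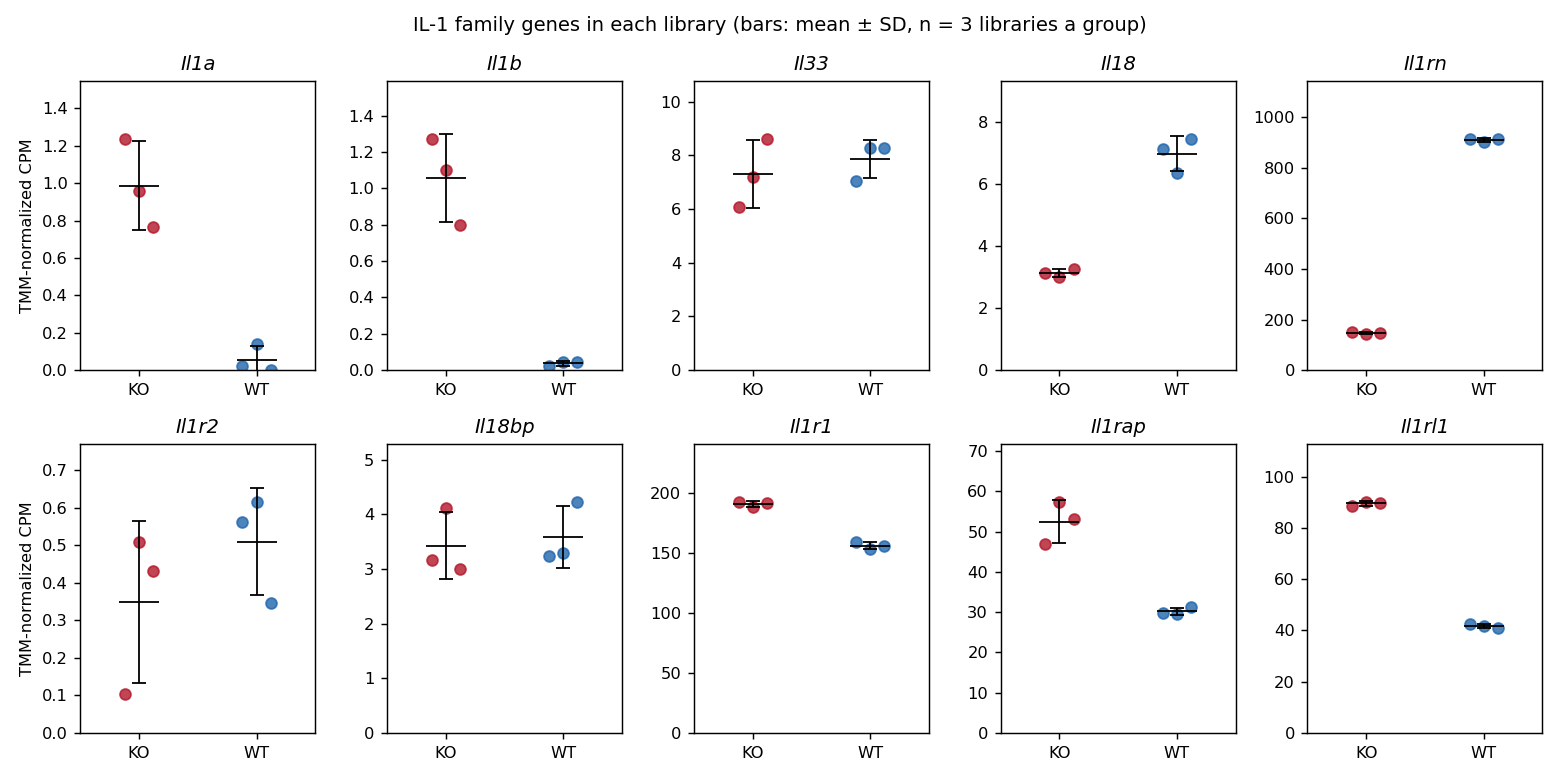
TMM-normalized CPM (vertical axis, linear from 0) of the 10 genes in each KO library (red, left) and WT library (blue, right), with the mean and SD over 3 libraries. Il1a, Il1b, Il1r1, Il1rap and Il1rl1 lie higher in every KO library than in any WT library, Il1rn and Il18 lie lower, and Il33, Il1r2 and Il18bp overlap.

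Il1rn, the receptor antagonist, had the largest fall of the family and, per transcript length, the highest level in both groups. Its level was 150, 143 and 148 CPM in the KO libraries, against 913, 902 and 913 CPM in the WT libraries. The spread within each group was a few CPM, and the groups stood far apart. Il1rn differed by −2.63 on the log2 scale (SE 0.030, adjusted p = 1.46e-18, edgeR), a level 6.19-fold lower in the KO, and 547 of the 15028 tested genes, Il1rn included, fell at least as far. Ranked by mean FPKM, a level per transcript length, 1141 genes stood above Il1rn in the KO and 143 in the WT. Il1rn is also a known product of macrophages. All 16 listed macrophage markers were called lower in the KO, beside 32.1% of all tested genes. Their summed level was 328 to 339 CPM in the KO and 3014 to 3042 CPM in the WT, with a median log2 fold change of −4.55. In bulk samples, fewer cells of a type and less RNA per cell cannot be told apart, and the part of these cells in the Il1rn difference was not tested.

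Of the ligands and blockers of IL-18 and IL-33, Il18 alone passed the test. Il18, a cytokine stored as a precursor, had 3.13, 3.00 and 3.26 CPM in the KO libraries, against 7.13, 6.35 and 7.45 CPM in the WT. The KO libraries all lay below the WT libraries, with a log2 fold change of −1.16 (SE 0.13, adjusted p = 1.32e-06, edgeR). The macrophage markers named above move with it too, and their part in the Il18 difference was likewise not tested. Il18bp, which neutralizes IL-18, stood at 3.16, 4.13 and 2.99 CPM in the KO, against 3.24, 3.29 and 4.23 CPM in the WT. These ranges overlap, and the difference of −0.06 on the log2 scale did not pass the test (adjusted p = 0.791, edgeR, 95% interval −0.44 to 0.32). Its sign turned without CRE1 (0.0011), CRE3 (0.042) or WT3 (0.075). Il18bp shares exon sequence with Numa1 on the opposite strand in GENCODE M21, so its separate count is uncertain.

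Il33, an alarmin kept in the nucleus of barrier and stromal cells, had 6.08, 7.21 and 8.61 CPM in CRE1, CRE2 and CRE3 and 7.06, 8.27 and 8.26 CPM in the WT libraries. The KO range held the whole WT range. The log2 difference of −0.11 did not pass the test (adjusted p = 0.492, edgeR, 95% interval −0.38 to 0.17), and without CRE1 it was 0.0092. Of the settings run, it was called lower under 2, both scaled by total counts: −0.32 with total counts alone (adjusted p = 0.0432, edgeR) and −0.23 on log2(FPKM + 1) (adjusted p = 0.0460, limma). With total counts alone the median of all tested genes moves by −0.21, so relative to other genes this is a small difference. The decoy receptor gene Il1r2 had 3, 18 and 13 counts in CRE1, CRE2 and CRE3 and 24, 26 and 15 counts in the WT libraries. CRE1 alone was far below the rest, and the groups overlapped. Its log2 fold change of −0.51 (SE 0.50) did not pass the test (adjusted p = 0.389, edgeR, 95% interval −1.58 to 0.55) and was −0.10 without CRE1. At this depth the data allow a fall or a rise.

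The signalling receptors were moderately higher in the KO. Il1r1 stood at 193, 189 and 192 CPM in the KO libraries, against 159, 153 and 156 CPM in the WT. The groups did not overlap, with a log2 fold change of 0.29 (SE 0.033, adjusted p = 1.21e-06, edgeR). Against a change of 1.2-fold it did not pass (adjusted p = 0.165, edgeR glmTreat), and with total counts alone it was 0.08 (adjusted p = 0.0314), beside the shift of −0.21 in all genes. Il1rap, the accessory protein shared by the receptors of IL-1 and IL-33, had 46.9, 57.5 and 53.2 CPM in the KO, against 29.9, 29.5 and 31.2 CPM in the WT. All KO libraries were above the WT libraries, with a log2 fold change of 0.80 (SE 0.065, adjusted p = 2.97e-08, edgeR) and of 0.44 on log2(FPKM + 1). Gm20319 overlaps Il1rap on the opposite strand in GENCODE M21. Il1rl1, the IL-33 receptor, had 88.5, 90.3 and 89.8 CPM in the KO libraries, against 42.4, 41.7 and 40.8 CPM in WT1, WT2 and WT3. Its groups were narrow and well apart, with a log2 fold change of 1.10 (SE 0.041, adjusted p = 1.89e-12, edgeR). The gene has a membrane form that signals and a soluble form that binds IL-33 as a decoy, and a count per gene does not separate them.

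**Figure D2:**
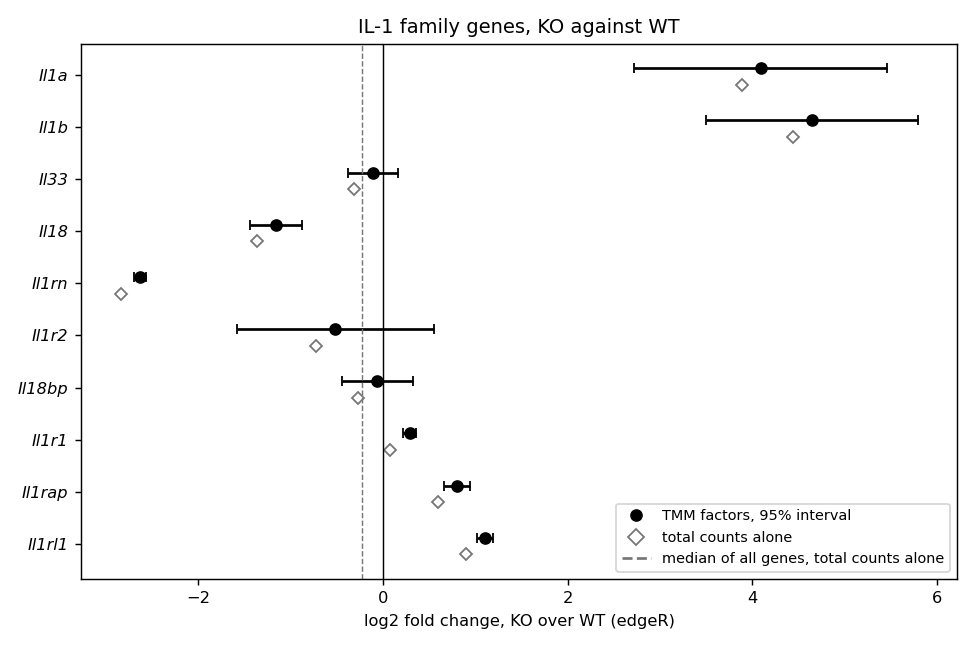
Log2 fold change, KO over WT, of the 10 genes (edgeR; filled points, 95% intervals) and the same with total counts alone as the scaling (open diamonds); the dashed line is the median of all tested genes under that scaling. Il1b and Il1a lie at 4.64 and 4.09 with wide intervals, Il1rn at −2.63 with a narrow one, and the intervals of Il33, Il1r2 and Il18bp cross 0.

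By count, 5 of the 10 genes were called higher in the KO, 2 lower and 3 neither at an adjusted p under 0.05 in edgeR's test. Among all 15028 tested genes 62.7% were called, 30.7% higher and 32.1% lower, so the family's share of calls was near that of the transcriptome. Of the 5 higher, Il1a and Il1b could be tested only because of their KO counts. The same 7 called genes were those whose groups did not overlap, which held for 67.1% of all tested genes, 32.3% with the KO higher and 34.8% with the KO lower. The median log2 fold change of the 10 was 0.12, beside −0.02 for all tested genes, and their range ran from −2.63 to 4.64.

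The levels per transcript length set the scale of each part of the system. Il1rn averaged 48.7 FPKM in the KO and 348 FPKM in the WT, and Il1r1 29.0 FPKM in the KO and 27.4 FPKM in the WT. These 2 genes came first and second in both groups, followed by Il1rl1 at 11.2 FPKM in the KO and 6.00 FPKM in the WT. Next in the KO were Il1rap (3.66 FPKM), Il33 (2.27), Il18 (1.12), Il18bp (0.692), Il1b (0.520), Il1a (0.465) and Il1r2 (0.121). In that order the ranges of Il18bp and Il1b overlapped, as did those of Il1b and Il1a. In the WT, Il18 (2.89 FPKM) and Il33 (2.82), whose ranges overlapped, stood above Il1rap (2.43), Il18bp (0.837) and Il1r2 (0.204). Il1a (0.030 FPKM) and Il1b (0.022) were last there, with ranges that overlapped. Il1a and Il1b together reached 1.202, 1.002 and 0.753 FPKM in the KO libraries, against 0.0261, 0.104 and 0.0264 FPKM in the WT libraries.

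**Figure D3:**
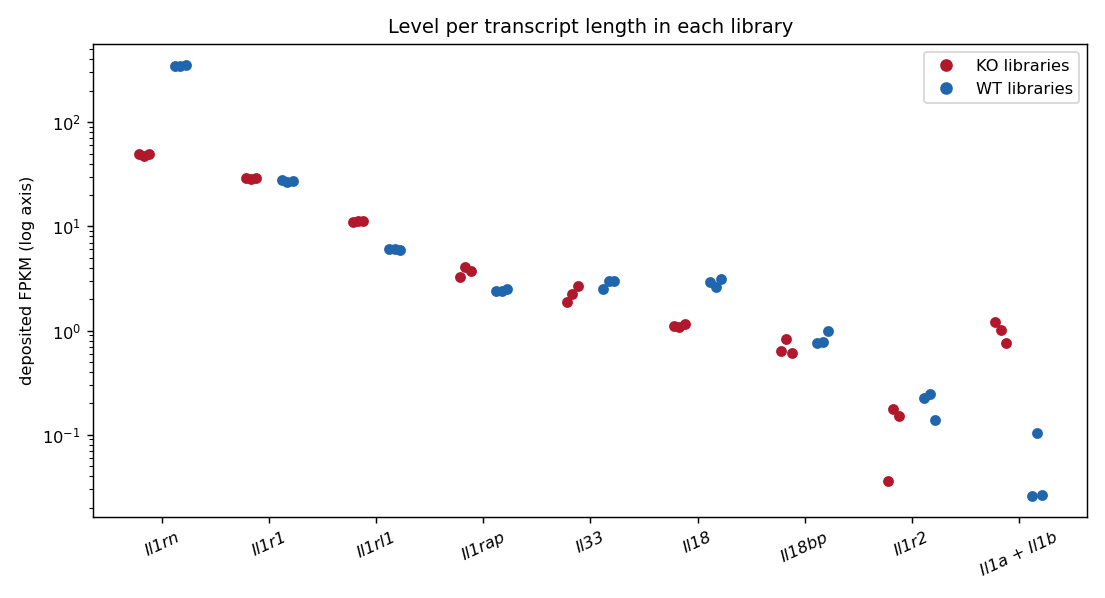
Deposited FPKM on a log axis in each KO library (red, left of each pair) and WT library (blue, right), with Il1a and Il1b summed. Il1rn is above the other genes in both groups, and the sum of the agonists is the lowest entry in the WT, where it lies between 0.0261 and 0.104 FPKM, while Il1r2 is the lowest in the KO.

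The ratio of blocker to ligand can be read within a library, where scaling between libraries cancels if no pseudocount is added. Il1rn exceeded the summed agonists 41.1, 47.5 and 65.2 times in CRE1, CRE2 and CRE3, against 13401, 3311 and 13275 times in the WT libraries, the last 3 resting on very few agonist counts. The antagonist transcript thus remained above the agonist transcripts in each of the 6 libraries. As log2 ratios of FPKM + 0.1, Il1rn over Il1b was 6.32 ± 0.287 in the KO and 11.5 ± 0.097 in the WT (SD, n = 3 each). That is a difference of −5.16 (exact permutation p = 0.1, two-sided, 0.133 adjusted over 4 ratios). Il1rn over Il1a differed by −4.98, at 6.45 ± 0.277 in the KO and 11.4 ± 0.446 in the WT (exact permutation p = 0.1, adjusted 0.133). Neither group overlapped the other in either ratio, and 0.1 is the smallest p that 3 against 3 libraries can give. Il1rn was lower and Il1a and Il1b higher in every KO library, so this separation was fixed in advance. These tests therefore add no support to the differences of the single genes. The pseudocount of 0.1 exceeds the mean WT level of Il1b (0.022 FPKM) and of Il1a (0.030 FPKM), so it narrows the WT spread. The size depends on the pseudocount too, and over the alternatives the Il1b ratio differed by −7.05 to −3.38.

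The other pairs moved less. Il18bp over Il18 was −0.64 ± 0.27 in the KO and −1.68 ± 0.145 in the WT on the same log2 scale, a difference of 1.04 with every KO library above every WT library (exact permutation p = 0.1, adjusted 0.133). The decoy over its signalling counterpart, Il1r2 over Il1r1, was −7.10 ± 0.564 in the KO and −6.52 ± 0.293 in the WT, with overlapping groups (exact permutation p = 0.2, adjusted 0.2). Il1r1 exceeded Il1rap 8.96, 7.13 and 7.84 times in FPKM in the KO, against 11.6, 11.3 and 10.9 times in the WT. Il1rn exceeded the receptor it occupies, Il1r1, 1.70, 1.66 and 1.69 times in the KO, against 12.5, 12.9 and 12.8 times in the WT. These last 2 ratios were not tested and their groups did not overlap. Il1rn was lower and Il1r1 higher in every KO library, so the separation of Il1rn over Il1r1 was fixed in advance. It adds no support to the differences of the single genes.

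Il1rap lies on chromosome 16. On chromosome 1 several other receptor genes of the family stand side by side, in RefSeq order Il1r2, Il1r1, Il1rl2, Il1rl1, Il18r1 and Il18rap. Their log2 fold changes along that order were −0.51, 0.29, 0.21 and 1.10, with no test for Il18r1 and 0.55 for Il18rap. Map4k4, the neighbour on the Il1r2 side, was at 0.82. Il1a and Il1b are neighbours on chromosome 2, and Ckap2l, next to Il1a, fell by 3.04 on the log2 scale. The adjacent Il1r1 and Il1rl2 thus had like fold changes, and Il1rl1 stood above both. The negative value of Il1r2 was too uncertain (SE 0.50) to be called unlike those of Il1r1 and Il1rl2. Il1a and Il1b also had like fold changes. Whether neighbours are more alike in one stretch than in the other was not tested.

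Of 11 further family genes listed, 10 were in the table and 3 had enough counts to test. Il18rap, the accessory chain of the IL-18 receptor, was called higher in the KO at 2.27, 2.43 and 3.36 CPM, against 1.64, 1.78 and 2.08 CPM in the WT (log2 fold change 0.55, adjusted p = 0.0397, edgeR). That call was lost with DESeq2, in limma on log2(FPKM + 0.1) with or without a filter, and with upper-quartile factors. It was also lost with total counts alone, against a 1.2-fold change and with the replicate number as a block. Leaving out either CRE3 or WT1 lost it too. Il1rl2, the receptor for IL-36, was at 10.7, 9.98 and 10.2 CPM in the KO, against 8.75, 9.55 and 8.31 CPM in the WT, and did not pass (adjusted p = 0.0605, edgeR). Il1rapl1, a relative of the accessory protein best known from neurons, had a log2 fold change of 0.37 and did not pass either (adjusted p = 0.444, edgeR). Il18r1, the ligand-binding chain for IL-18, had 6, 10 and 8 counts in the KO and 12, 7 and 3 counts in the WT. The inhibitory receptor gene Sigirr had 1, 4 and 0 counts in the KO and 9, 4 and 4 in the WT. Il36a, Il36g, Il36rn, Il1f10 and Il1rapl2 did not exceed 12 counts in any library.

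Genes of signalling below the receptor were divided. Of 24 tested, 10 were higher in the KO, 4 lower and 10 not called (41.7% higher and 16.7% lower, beside 30.7% and 32.1% of all tested genes), with a median log2 fold change of 0.10. The 4 with the smallest p were all higher: Usp13, a deubiquitinase, had a log2 fold change of 2.41, Zc3h12a, an RNase that limits cytokine transcripts, 1.91, Map3k8, a MAP kinase kinase kinase, 1.74, and Peli2, a ubiquitin ligase that acts on IRAK proteins, 0.81. Usp13 had 59.5, 60.3 and 59.9 CPM in the KO libraries, against 10.9, 11.0 and 11.9 CPM in the WT libraries. With total counts alone the split became 8 higher and 12 lower, so it depends on the scaling; under that scaling 26.8% of the calls among all genes were higher. Among 18 genes of precursor cutting and release, 11 were lower in the KO, 4 higher and 3 not called (61.1% lower and 22.2% higher, beside 32.1% and 30.7% of all tested genes), with a median of −0.31. Casp1, whose product cuts the precursors of IL-1beta and IL-18, had 0.928, 0.876 and 0.931 CPM in the KO, against 11.4, 11.4 and 13.4 CPM in the WT (log2 fold change −3.73, SE 0.15, adjusted p = 3.65e-12, edgeR). Nlrp3, the inflammasome sensor that activates caspase-1, was at 0.928, 0.480 and 0.731 CPM in the KO, against 7.46, 6.16 and 6.76 CPM in the WT (−3.27). P2rx7, the ATP-gated channel that triggers that inflammasome, was lower (−1.20), and Ninj1, which ruptures the membrane of dying cells, was higher (1.08). Inflammasome genes are well expressed by macrophages, whose markers stood at the levels given above, and the part of those cells was not tested.

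Genes known to respond to IL-1 in chondrocytes, a list that also holds targets of other inflammatory signals, were higher in the KO. All 29 tested of 30 listed were called higher, beside 30.7% of all tested genes, with a median log2 fold change of 2.50, and Csf2 had too few counts. The count was 26 to 29 over the other settings. The 4 with the smallest p were the stromelysin Mmp3 (4.51), the acute-phase gene Saa3 (4.07), the collagenase Mmp13 (3.44) and the iron-scavenging lipocalin Lcn2 (3.12). Several of these genes were known to be higher in these libraries when the list was written, so it is not independent evidence of a direction. Zc3h12a is on this list and on the signalling list.

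**Figure D4:**
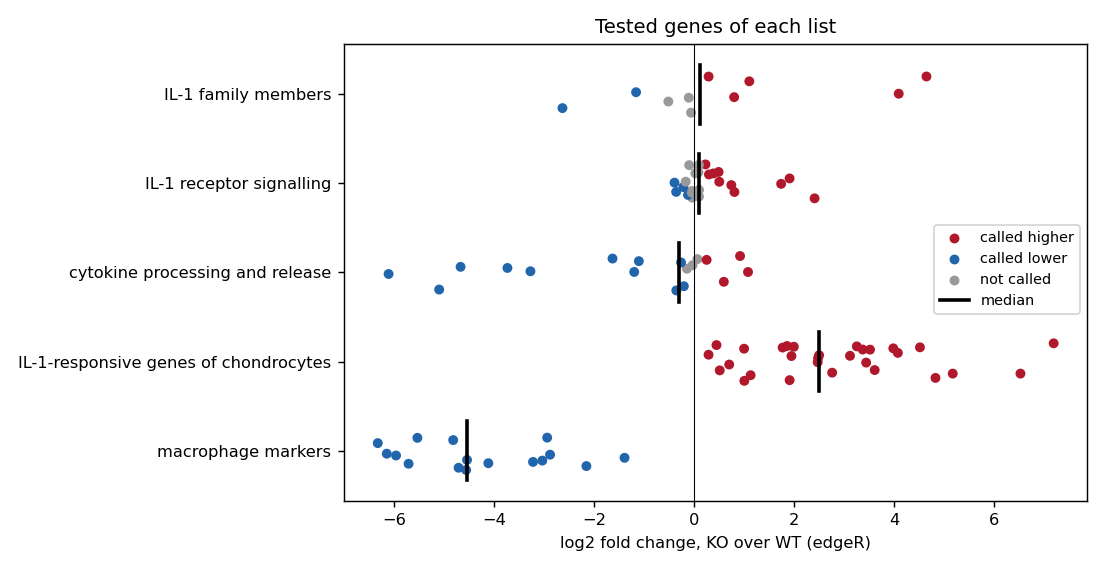
Log2 fold change, KO over WT, of every tested gene (points, spread vertically for legibility) of the family, of 3 related gene lists and of macrophage markers, coloured by call, with the list median as a bar. The IL-1-responsive genes lie wholly above 0 (median 2.50), the macrophage markers wholly below it (median −4.55), and the family on both sides.

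Markers of other cell types that can hold these transcripts were read in the same libraries. The macrophage markers with the highest mean level over all 6 libraries were Lyz2, Mrc1, Adgre1 and Cd68. Lyz2 averaged 229 CPM in the KO and 1748 CPM in the WT. Neutrophil markers summed to 5.92 to 6.50 CPM in the KO and 0.463 to 1.06 CPM in the WT. Of these markers, 3 of 10 were testable. Camp and S100a8 were higher in the KO and S100a9 was not called (66.7% higher, beside 30.7% of all tested genes). The defining neutrophil gene Ly6g had no count in the KO and 1 count in the WT, and Elane had none in the KO and 1 in the WT. Mast cell and basophil markers summed to 3.09 to 4.16 CPM in the KO and 0.938 to 1.42 CPM in the WT. Of the 2 tested, Mcpt8 was higher in the KO and Kit was lower (50% each way, beside 30.7% higher and 32.1% lower of all tested genes). Cpa3 had no count in the KO and 1 in the WT. Lymphocyte markers summed to at most 0.653 CPM in the KO and 0.563 CPM in the WT. Keratinocyte markers summed to 6.50 to 10.1 CPM in the KO and 13.6 to 14.3 CPM in the WT. Of 4 tested, 2 were lower and 2 not called (50% lower, beside 32.1% of all tested genes). Endothelial markers summed to 13.2 to 14.7 CPM in the KO and 9.26 to 11.8 CPM in the WT. Their 6 tested genes went both ways, with 2 higher, 2 lower and 2 not called (33.3% each way, beside 30.7% and 32.1%). Of 12 chondrocyte markers 11 were lower in the KO (91.7%, beside 32.1% of all tested genes), with sums of 2932 to 3061 CPM in the KO and 8522 to 8717 CPM in the WT. The 12 fibroblast and synovial lining markers summed to 29384 to 30411 CPM in the KO and 22638 to 22838 CPM in the WT. Of the 11 testable, 5 were higher, 5 lower and 1 not called (45.5% each way, beside 30.7% higher and 32.1% lower of all tested genes). The part of any of these cell types in the differences of Il1a, Il1b or the receptors was not tested.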

How the data were processed

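Libraries were built with a VAHTS Universal V6 kit from TRIzol-extracted total RNA, per the labels' protocols. Tools listed in the submitters' processing notes are HTSeq, HISAT2 and fastp, with no version, and the build is GRCm39. The authors deposited 2 tables, one of whole-number read counts and one of FPKM. In 100% of 14394 genes checked, the ratio of count to FPKM, given the total of its column, implied 1 length for all 6 libraries within 0.1%, so FPKM carries no correction for library make-up. Column names matched WT libraries to samples, and showed only the group of the KO libraries.

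Counts were tested with edgeR 4.0.16 in R 4.3.3 (two-sided quasi-likelihood test on the group alone, TMM factors, genes kept by filterByExpr at a count minimum of 10), with p-values adjusted by Benjamini-Hochberg over 15028 genes. SEs are the log2 fold change over the square root of its F statistic. Ratios between genes were compared by exact permutation. Other settings used DESeq2 1.42.0 and limma 3.58.1 on log2(FPKM + 1) or log2(FPKM + 0.1). Libraries of 1 group differed beyond counting noise (chi-square 3.18 to 8.12 per degree of freedom), so none was merged.

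The genes and lists were chosen with earlier results of these data known. The genes named were Mfn2, the family and its listed relatives, the 4 smallest p of each other list, and at most 4 abundant genes per marker list; others were named after their values were seen. Older symbols were not searched, and 1 listed relative did not match a symbol. Promoter windows came from RefSeq on GRCm38.p6, an earlier build than the one the submitters name. Protein sequences were not used here.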

Additional observations from a re-analysis of the deposited data

How the results depend on the processing

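The fold changes of Il1a, Il1b, Il1rn, Il1rap, Il1rl1 and Il18 kept their direction and their call under every other setting that tested them. Of these, Il1a and Il1b passed the main filter only through the KO libraries, so refits with that filter are not independent support for them. The number of family genes called higher was 3 in place of 5 where a CPM above 1 in 3 libraries or a mean FPKM of at least 1 (log2(FPKM + 1), limma) was required, because fewer were tested. Leaving out 1 library at a time gave 5 higher and 2 lower each time, and the fold change of Il1a ran from 3.52 to 6.03. Over the same fits the fold change of Il33 ran from −0.23 to 0.0092 (without CRE1), and that of Il18bp from −0.21 to 0.075, with 0.0011 without CRE1, 0.042 without CRE3 and 0.075 without WT3. Among all genes, calls higher numbered 2789 with total counts alone, 2354 on log2(FPKM + 1), 2706 and 2753 on log2(FPKM + 0.1) with and without a filter, and 2724 against a 1.2-fold change. Calls lower numbered 7627, 7337, 7349 and 3132 with total counts alone, log2(FPKM + 0.1) with and without a filter, and a 1.2-fold change. Of all calls, 48.9% were higher with TMM factors and 26.8% with total counts alone; leaving out 1 library gave 4264 to 4773 higher and 4396 to 4774 lower. Among the other family genes 0 were called higher with DESeq2, upper-quartile factors, total counts alone, the 3 limma fits, the 1.2-fold test and the replicate block, 2 with DESeq2's size factors, and 0 to 1 with 1 library left out. Signalling genes called lower numbered 7 with upper-quartile factors, 12 with total counts alone, 11, 11 and 9 in the limma fits and 2 against 1.2-fold, and 3 to 4 with 1 library left out. Genes of precursor cutting called higher numbered 2 on log2(FPKM + 1). Beyond the scaling and the number of genes tested, the cause of these shifts was not tested. The numbers at the end of the column names showed no sign of pairing the libraries: deviations of same-numbered libraries correlated at −0.086, 0.055 and −0.095. With 3 libraries a group this cannot exclude a pairing. With a replicate block, 5 family genes were called higher, 2 lower, and 9094 genes in all. Precision is limited by depth for Il1a, Il1b and Il1r2.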
